A study of Mus musculus with 8 samples.

Results

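Wdr48 encodes a scaffold protein built of WD40 repeats that has no protease activity of its own. It binds the ubiquitin-specific proteases Usp1, Usp12 and Usp46 and activates them. The Usp1 complex removes ubiquitin from the DNA repair proteins Fancd2 and Fanci and from the replication clamp Pcna. Usp12 and Usp46 are close relatives that take up a further WD40 protein, Wdr20, and in neurons Usp46 has been linked to the turnover of glutamate receptors. The expression of these 4 genes was examined in the hippocampus of BTBR mice. The members were all non-control probes on the arrays that carry one of the 4 gene names. These are 4 of 27373 gene names and 6 of 41174 probes, 1 for Wdr48, 1 for Usp1, 2 for Usp12 and 2 for Usp46, and all 6 passed the filter on dim probes. Wdr48 was selected on its difference between BTBR and B6 in these same arrays, and the others as its known partners with that comparison in view. The comparison of the strains is therefore given for these genes as a description, with no test.

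The data come from whole hippocampi of 4 BTBR mice (genotype BTBR T+ Itpr3tf/J) and 4 control mice of the inbred strain C57BL/6J (B6, wild type). All were male, 5 months old and untreated, and each mouse was measured on its own single-color Agilent array. For the BTBR mice the labels also give C57BL/6J as strain background, and their group was taken from the title. BTBR is an inbred strain, so that it differs from B6 at many loci at once, and a difference between the strains cannot be assigned to any of them. Expression is given as quantile normalized log2 intensity, and differences are BTBR minus B6.

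The arrays sat on 2 slides, with replicates 1 and 2 of both strains on slide 1 and replicates 3 and 4 on slide 2. Between 56.8% and 71.9% of the probes on an array were well above background, and no probe was saturated. All 9 neuronal, 6 astrocyte, 6 microglial and 6 oligodendrocyte marker genes were well above background on all arrays. Of the 6 thalamic markers 5 were as well, and their summed linear level ran from 8407 to 12375 in B6 and from 10750 to 66813 in BTBR mice. All 6 lay higher in BTBR mice, by 0.50 to 1.22. Gbx2, well above background on 1 B6 and 3 BTBR arrays, passed the filter on dim probes through BTBR mice alone. None of the 6 thalamic, 5 meningeal, 5 endothelial or 4 choroid plexus markers tested was called by limma between the strains, and 1 meningeal marker had an unadjusted p under 0.05. At their brightest probe, Gfap in astrocytes (-1.30) and Cx3cr1 in microglia (1.41) were the markers that were called. The other 5 astrocyte markers were not called and lay between -0.26 (Aqp4) and 0.19 (Aldh1l1). The other 5 microglial markers lay between -0.27 and 0.16, with 0 called, and a second Cx3cr1 probe was at -0.10. The part of tissue composition in the values below was not tested, and fewer cells of a type and less RNA per cell cannot be told apart.

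The probes are 60 bases long, and each value rests on what binds to that stretch. The first 30 bases of each are shown 5′ to 3′ as the array files give them, because Wdr48 and Usp1 were read by a single stretch each and the partner genes by stretches that differ in brightness. No part is in capitals.
Wdr48 probe 1: gcagcttttccaagtacattccactcatgc
Usp1 probe 1: ttatgaagatggctctgtactctagtcaat
Usp12 probe 1: gattgtcgtttgtttgcctgcgattatgat
Usp12 probe 2: agatgaagattttttagacctttctgttga
Usp46 probe 1: gccatcgtgcagcagtgaagaggatagcac
Usp46 probe 2: agtcagcactactcctgactctgttttggt
On mm9 the Wdr48 probe (NM_026236) lies on the plus strand at chr9:119834287-119834346, and that of Usp1 (NM_146144) on the plus strand at chr4:98602068-98602127. The Usp12 probes (NM_011669) lie on the minus strand at chr5:147546985-147547044 and chr5:147563475-147563534. Those of Usp46 (NM_177561) lie on the minus strand at chr5:74396489-74396548 and chr5:74397840-74397896. Their place within exons or untranslated regions was not analysed here. The Wdr48 probe holds 24 G or C bases (40.0%), and its longest run of bases in common with any other probe of the array, on either strand, is 14. For the 5 partner probes this run is between 13 and 16 bases.

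The scaffold gene Wdr48 was much higher in BTBR mice. Its probe measured 11.54, 11.53, 11.70 and 11.78 in B6 replicates 1 to 4 and 14.70, 14.83, 14.73 and 14.87 in BTBR replicates 1 to 4. The lowest BTBR array lay 2.92 above the highest B6 array, so that the strains did not overlap. The mean was 11.64 ± 0.12 in the B6 and 14.78 ± 0.08 in the BTBR group (SD, n = 4 each). The difference of 3.15 (standard error 0.08) corresponds to an 8.85-fold higher signal, on a scale where 50 was added to each intensity. The same step stood out in the scanner intensities before any scaling between arrays. With the local background subtracted they were 3007, 3322, 3137 and 3370 units in B6 and 28791, 29780, 23328 and 28373 units in BTBR replicates 1 to 4. All 8 spots were well above background. The Wdr48 difference was the third highest of 27982 tested probes, after AK090125 with 5.76 and Limch1 with 3.84, and followed by Adi1 with 3.05. These 4 values are the readout that chose Wdr48 or lie next to it, and are given for orientation only.

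The Wdr48 difference varied little between subsets of the arrays. It was 3.23 on slide 1 and 3.06 on slide 2, and ran from 3.11 to 3.19 when single arrays were dropped. The other ways of scaling gave values between 3.09 with median centring and 3.23 with the processed signal of the scanner software. No other probe on the array carries the gene name, so that a second stretch of the transcript could not be compared.

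**Figure D1:**
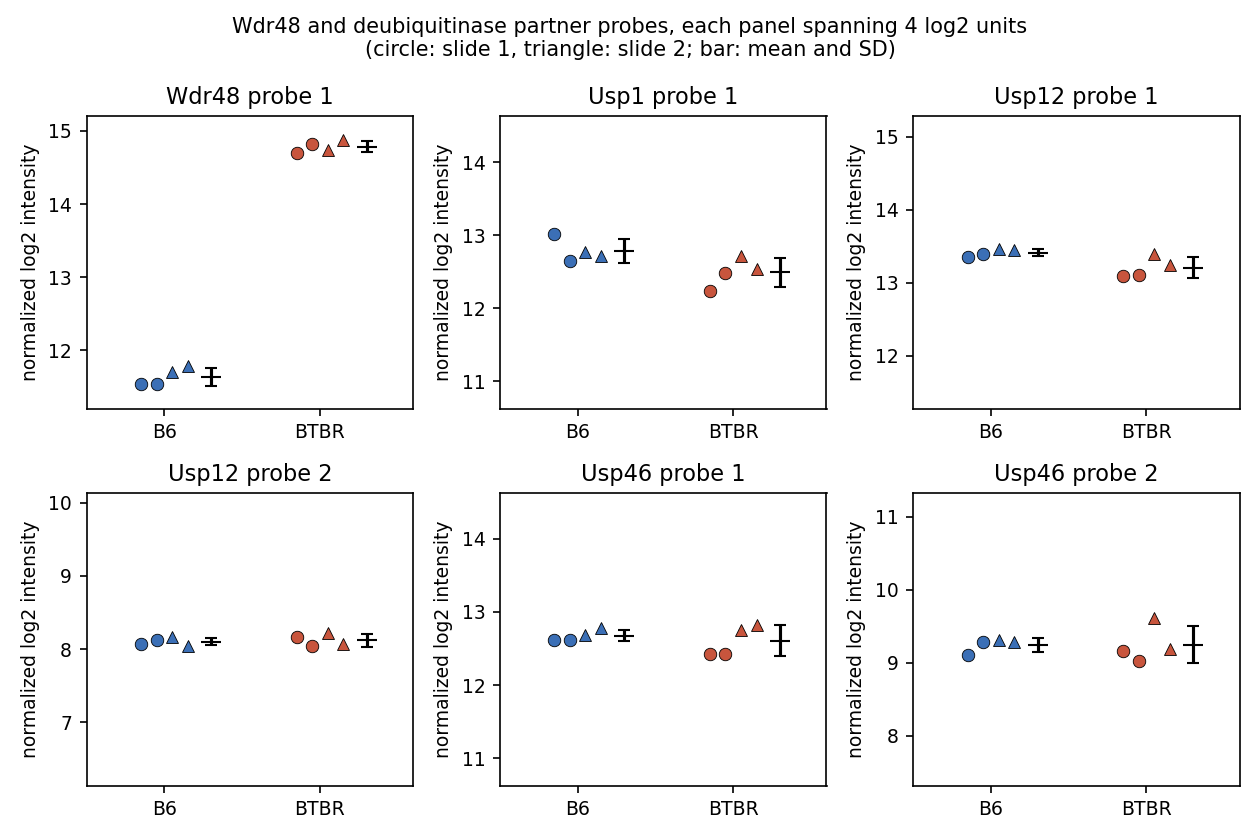
Normalized log2 intensity (vertical axes, each spanning 4 log2 units) of the 6 probes in B6 (blue) and BTBR (red) hippocampus. Each point is 1 mouse, circles are arrays on slide 1 and triangles on slide 2, and bars give mean and SD (n = 4). At Wdr48 the BTBR arrays lie at 14.70 and above and the B6 arrays at 11.78 and below, whereas the strains overlap at the 5 partner probes.

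The catalytic partners did not follow this step. Usp1, the protease of the DNA repair complex, measured 13.02, 12.64, 12.77 and 12.72 in B6 replicates 1 to 4 and 12.23, 12.49, 12.71 and 12.54 in BTBR replicates 1 to 4. BTBR replicate 3 reached into the B6 range, and the other BTBR arrays lay below it. The mean was 12.79 ± 0.16 in the B6 and 12.49 ± 0.20 in the BTBR group (SD, n = 4 each), a difference of -0.29 (standard error 0.12). The size of this difference was not even over the slides, with -0.47 on slide 1 and -0.11 on slide 2. It stayed between -0.37 and -0.21 with 1 array left out. Whether the strains overlapped at Usp1 depended on the scaling. They did not overlap in the unscaled intensities, where B6 ran from 6525 to 8479 units and BTBR from 5436 to 5857 units, nor with median centring (-0.35).

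Usp12 was read by a bright and a dim probe. The bright probe measured 13.35, 13.40, 13.46 and 13.45 in B6 replicates 1 to 4 and 13.10, 13.10, 13.39 and 13.25 in BTBR replicates 1 to 4. As at Usp1, BTBR replicate 3 was the array that entered the B6 range. The mean was 13.42 ± 0.05 in the B6 and 13.21 ± 0.14 in the BTBR group (SD, n = 4 each), a difference of -0.21 (standard error 0.08). The bright Usp12 probe was at -0.27 on slide 1 and -0.14 on slide 2. In the unscaled intensities the strains were apart, from 10741 to 12260 units in B6 and from 8994 to 9769 units in BTBR mice. The dim probe gave no such shift. It measured 8.07, 8.12, 8.16 and 8.05 in B6 and 8.16, 8.04, 8.22 and 8.06 in BTBR replicates 1 to 4. Its difference was 0.020 (standard error 0.065), and on B6 replicate 1 it was not well above background. With the processed signal the dim probe was at 0.11, with an SD of 0.44 in the B6 group. Whether the probes of Usp12 differ was not tested, and with the median over both the gene was at -0.093.

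Usp46, the near relative of Usp12, differed little between the strains. Its bright probe measured 12.62, 12.62, 12.68 and 12.77 in B6 and 12.42, 12.42, 12.75 and 12.82 in BTBR replicates 1 to 4. The means were 12.67 ± 0.07 and 12.60 ± 0.21 (SD, n = 4 each), a difference of -0.07 (standard error 0.11). Here the BTBR mice fell apart by slide, with both arrays of slide 1 below all B6 arrays and 1 array of slide 2 above all of them. The second probe measured 9.105, 9.28, 9.32 and 9.28 in B6 and 9.16, 9.02, 9.61 and 9.19 in BTBR replicates 1 to 4. Its difference was 0.0012 (standard error 0.12). With 1 array left out the bright probe ran from -0.14 to -0.0068, and the second from -0.12 to 0.08, so that its sign changed. Both probes of Usp46 were lower in BTBR mice on slide 1, by -0.20 and -0.10, and higher on slide 2, by 0.06 and 0.11. Over all probes tested, limma called no change of the strain difference between slides (0 of 27982 probes, 0% called at an adjusted p under 0.05, with 2780 at an unadjusted p under 0.05).

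In the fit of all probes with limma, 7.61% of 27982 probes were called at an adjusted p under 0.05, 3.31% higher and 4.3% lower in BTBR mice. At 14.2% the strains did not overlap, with all BTBR arrays higher at 6.91% and all lower at 7.27%. Among the 6 probes of the 4 genes, that of Wdr48 was called and did not overlap, and the 5 partner probes were not called and overlapped. Since the genes were chosen with this comparison known, nothing is read from these counts. The median absolute difference over all probes was 0.10, and the median SD within a strain was 0.13. The Usp1 and bright Usp12 differences were larger than that median, and those of the other 3 partner probes were smaller.

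**Figure D2:**
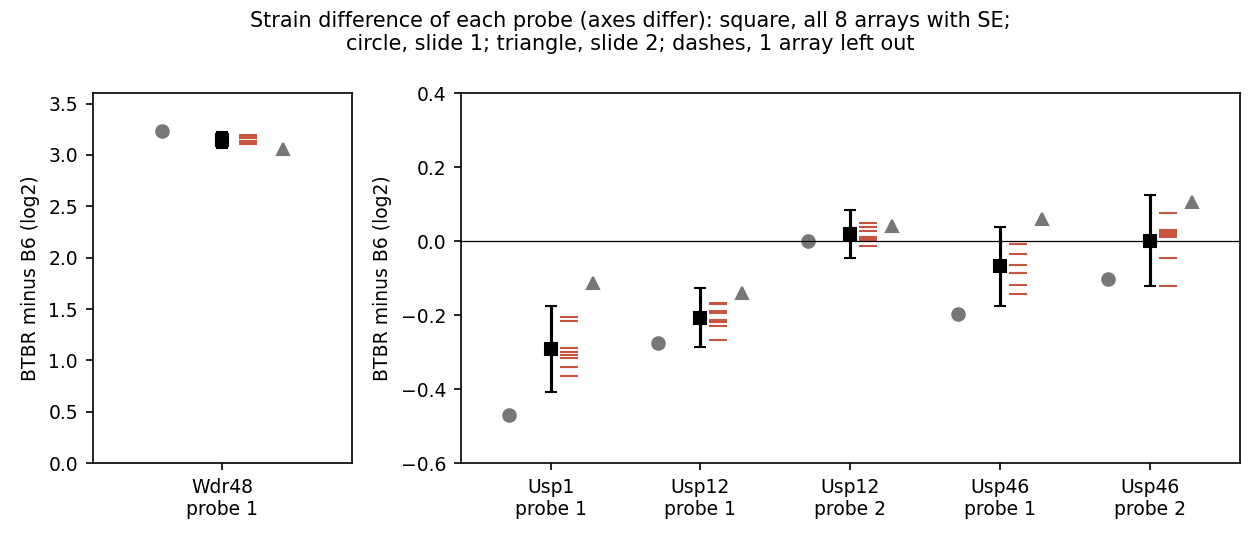
Difference between BTBR and B6 (log2) at each probe, with Wdr48 on an axis of its own. Squares are the values over 8 arrays with their standard error, circles and triangles the values within slide 1 and slide 2, and dashes the values with 1 array left out. Wdr48 stays between 3.06 and 3.23, and the Usp46 probes lie on opposite sides of 0 on the 2 slides.

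How the 4 genes varied among mice of the same strain does not use the comparison that chose them. The brightest probe of each gene was centred on its strain mean, and the 6 pairs of genes were compared over the 8 arrays by exact two-sided permutation within strains (576 permutations in all). Usp12 and Usp46 varied together most, with a Pearson r of 0.83 (exact p = 0.120, adjusted 0.531) and a Spearman rho of 0.88 (exact p = 0.080, adjusted 0.240). Without the 2 arrays farthest from the median of Usp12 the Pearson r was 0.82. Both genes were higher on slide 2. With the values centred on strain and slide the r was -0.65, which rests on 2 arrays of each strain per slide and was not tested. For Wdr48 and Usp46 the r was 0.46 (exact p = 0.177, adjusted 0.531) and the rho 0.55 (exact p = 0.076, adjusted 0.240). Without the 2 farthest arrays it was 0.37, and centred on slide as well it was 0.74. With Usp12, Wdr48 had an r of 0.24 (exact p = 0.531, adjusted 0.638) and a rho of 0.40 (exact p = 0.264, adjusted 0.528). This r was 0.18 without the 2 farthest arrays and -0.66 when centred on slide as well.
Between Wdr48 and Usp1 the r was -0.04 (exact p = 0.903, adjusted 0.903) and the rho 0.05 (exact p = 0.964, adjusted 0.964). The r was -0.12 without the 2 farthest arrays and 0.069 when centred on slide as well. Usp1 had an r of 0.48 with Usp12 (exact p = 0.335, adjusted 0.638) and of 0.45 with Usp46 (exact p = 0.425, adjusted 0.638). The rho was 0.38 in both cases (exact p = 0.441 and 0.476, adjusted 0.571). Without the 2 farthest arrays these r were 0.70 and 0.48, and centred on slide as well 0.13 and -0.31. None of the 6 relations passed the adjustment at this number of mice. The r centred on slide were not tested, and a slide alone holds too few mice for this permutation test.

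The genes closest to each member in pattern were found by the root mean square difference of the 8 log2 values, after each probe was centred on its own mean. For Wdr48 these were Adi1 on chromosome 12 (0.23), the unannotated transcript NAP032508-1 (0.25) and CB205479 on chromosome 7 (0.38). Their differences between the strains were 3.05, 2.79 and 2.48. This centring keeps the strain difference, so the Wdr48 matches restate the step of 3.15 that chose the gene. Adi1, an enzyme of methionine salvage, measured 8.95 ± 0.07 in the B6 and 11.998 ± 0.33 in the BTBR group (SD, n = 4 each). The closest to Usp1 were Sf3b3, a splicing factor subunit (0.044), and Eif3e, a translation initiation factor subunit (0.049). Closest to the bright probe of Usp12 were Polr2k, an RNA polymerase subunit (0.031), and Wdfy2 (0.039). Closest to Usp46 were 9430023L20Rik (0.032) and Cpsf2, of the mRNA cleavage machinery (0.035). With so many probes and 8 arrays such close matches are a description of these arrays.

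None of the other proteins of the Wdr48 complexes that were tested was called. Wdr20, the further WD40 subunit of the Usp12 and Usp46 complexes, measured 10.43 ± 0.05 in the B6 and 10.36 ± 0.12 in the BTBR group (SD, n = 4 each), a difference of -0.07 (limma adjusted p = 0.688). Its other probes were at -0.06 and 0.05. The phosphatases Phlpp1 (0.04, limma adjusted p = 0.880) and Phlpp2 (-0.06, limma adjusted p = 0.867), which bind these complexes, did not pass the test either. Of this list 0 of 3 genes tested were called by limma (0 at an unadjusted p under 0.05), against 7.82% of 18399 genes by their brightest probe, 3.49% higher and 4.33% lower. Wdr20rt, a testis relative of Wdr20, was on the array but too dim to be tested.

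Of 29 Fanconi anaemia and translesion synthesis genes around Usp1, 1 rose and 1 fell in BTBR mice (6.90% called by limma, against 7.82% of all genes). Ube2t, the enzyme that attaches ubiquitin to Fancd2, rose by 0.49 (standard error 0.10, limma adjusted p = 0.017). It went from 9.28 ± 0.12 in the B6 to 9.77 ± 0.17 in the BTBR group (SD, n = 4 each). Pcna, a substrate of the Usp1 complex, measured 14.08 ± 0.05 in the B6 and 13.80 ± 0.11 in the BTBR group (SD, n = 4 each). It fell by 0.28 (standard error 0.07, limma adjusted p = 0.042). The strains did not overlap at either gene. The Ube2t call was lost without B6 replicate 2, 3 or 4, and the Pcna call without any B6 array or BTBR replicate 2, 3 or 4. Over these fits Ube2t stayed between 0.43 and 0.55 and Pcna between -0.31 and -0.24, and within slide 1 neither was called (adjusted p = 0.128 for both), with Ube2t at 0.32 and Pcna at -0.24. Within slide 2 Ube2t was at 0.67 and called (adjusted p = 0.020), and Pcna was at -0.33 and not called (adjusted p = 0.097).
Fancd2 (-0.12, limma adjusted p = 0.652), Fanci (0.0060, limma adjusted p = 0.978) and Atad5, which guides Usp1 to Pcna (-0.24, limma adjusted p = 0.326), did not pass the test. Usp7, another protease of the repair pathway, was at -0.04 (limma adjusted p = 0.793). The median of the 29 genes was -0.05, against 0.011 over all genes.
Among 11 proteins described as substrates of Wdr48 complexes, Pcna was the gene called by limma at its brightest probe (9.09%, against 7.82% of all genes). A dimmer probe of Id2, a transcriptional inhibitor, also fell by 0.57 (limma adjusted p = 0.014), with the brightest at -0.03. The AMPA receptor subunit Gria1 was at -0.53 on one probe (limma adjusted p = 0.409) and -0.50 on the other. It measured 16.01 ± 0.29 in the B6 and 15.48 ± 0.66 in the BTBR group (SD, n = 4 each), and the strains overlapped. The median of the 11 genes was 0.0087.

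The other 44 genes with Usp names lay on both sides of 0, with 21 higher and 23 lower in BTBR mice. Of these, 0 were called higher and 3 lower by limma (6.82%, against 7.82% of all genes), with a median of -0.010. The names include Usp6nl, a GTPase-activating protein and no protease, and without it 3 of 43 were called (6.98%). Usp25 fell by 1.54 (standard error 0.13, limma adjusted p = 8.7e-05), from 12.07 ± 0.04 in the B6 to 10.53 ± 0.28 in the BTBR group (SD, n = 4 each). At its other probe the fall was 0.41 (limma adjusted p = 0.031), a call that was lost without B6 replicate 3 or 4 or BTBR replicate 1 or 2 (adjusted p up to 0.088). Usp53 fell by 1.40 (standard error 0.08, limma adjusted p = 1.0e-05), from 10.699 ± 0.06 to 9.30 ± 0.15 (SD, n = 4 each), while its second probe was at 0.03 (limma adjusted p = 0.852). Usp37, a protease of the cell cycle, fell by 0.33 at its brightest probe (limma adjusted p = 0.022). At another Usp37 probe it rose by 0.25 (limma adjusted p = 0.042), and the third was at 0.26 (limma adjusted p = 0.081), so that the probes of the gene differed in sign. With 1 array left out, the call of the falling Usp37 probe was lost in 5 of 8 fits (adjusted p up to 0.077) and that of the rising probe in all 8 (adjusted p up to 0.133). With the processed signal the rise was 0.43 and not called (limma adjusted p = 0.065). Among 33 genes of other deubiquitinase families 0 were called by limma and 8 had an unadjusted p under 0.05 (24.2%, against 19.2% of all genes), with a median of -0.03 and the smallest adjusted p at Cops5 (-0.22, limma adjusted p = 0.069). Dimmer probes were called at Cyld (0.47, limma adjusted p = 0.042) and Brcc3 (-0.30, limma adjusted p = 0.012), and among the Usp genes at Usp36 (0.49, limma adjusted p = 0.0088), Usp31 (-0.43, limma adjusted p = 0.013) and Usp38 (-0.29, limma adjusted p = 0.014).

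Of 60 other genes named Wdr for their WD repeats, limma called 4 higher and 0 lower (6.67%, against 7.82% of all genes, 3.49% higher and 4.33% lower), with a median of -0.0083. Wdr63 was up-regulated by 1.22 (standard error 0.24, limma adjusted p = 0.014). Wdr52 rose by 0.76 (standard error 0.16, limma adjusted p = 0.019). Both are known from cilia, and both were well above background on 3 of 4 B6 arrays. With the processed signal, to which no offset was added, they were at 2.21 and 1.67. Wdr82, a subunit of histone methyltransferase complexes, rose by 0.37 (limma adjusted p = 0.047) and at its second probe by 0.69 (limma adjusted p = 1.1e-04). Wdr83 rose by 0.29 (limma adjusted p = 0.046). These counts use the brightest probe of a gene, and dimmer probes can go the other way. Wdr37, not called at its brightest probe (-0.16, limma adjusted p = 0.336), fell at 3 of its 4 other probes, by 0.34, 0.69 and 0.80 (largest limma adjusted p = 0.016). The Wdr83 call and that of the brightest Wdr82 probe were lost without 7 of the 8 arrays in turn, with adjusted p up to 0.128 and 0.129. The Wdr52 call was lost without B6 replicate 1 or 4 (adjusted p up to 0.057), and within slide 2 the calls of Wdr52 (0.52, adjusted p = 0.348) and Wdr63 (0.88, adjusted p = 0.128) were lost. On slide 1 they were at 0.99 and 1.57.

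**Figure D3:**
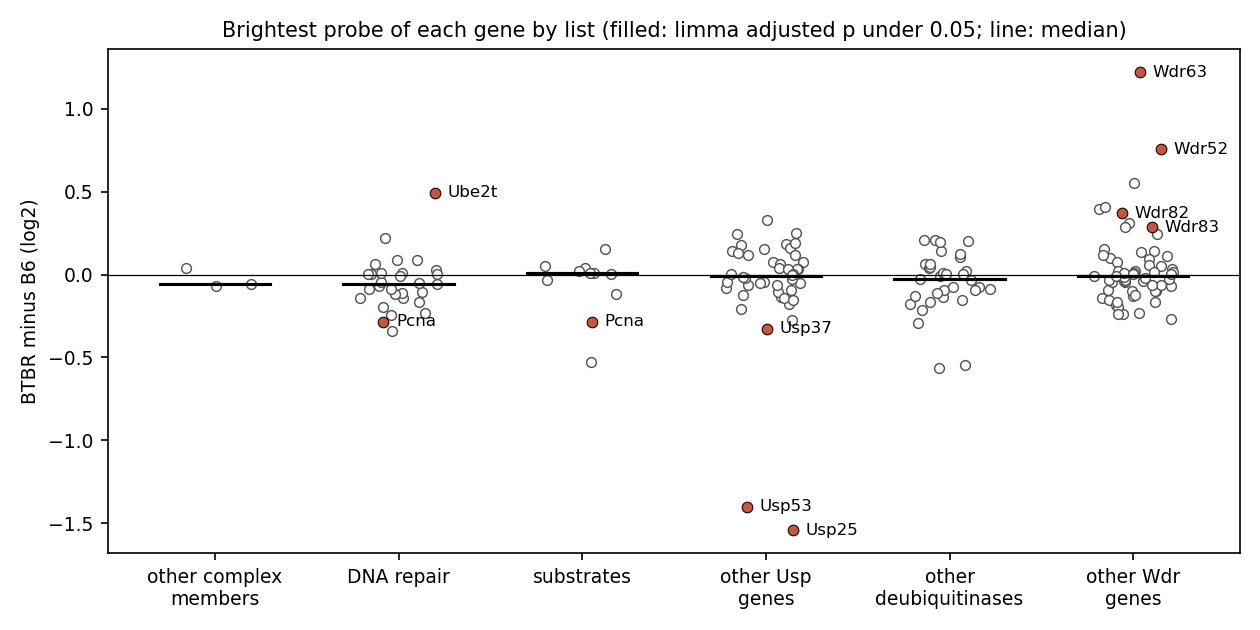
Difference between BTBR and B6 (log2, vertical axis) at the brightest probe of each gene in the 6 lists. Filled points passed limma at an adjusted p under 0.05, open points did not, and lines are medians. Medians lie between -0.06 and 0.0087, and Usp25 (-1.54), Usp53 (-1.40) and Wdr63 (1.22) stand farthest out.

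The place of the genes on the chromosomes was not used to choose them. Within 1 Mb of the Wdr48 probe, 41 probes of 27 other genes were tested, and limma called 8 of them (19.5%, against 7.61% of all probes), 3 higher and 5 lower in BTBR mice. Within 2 Mb the share was lower, with 9 of 82 probes called (11%), and within 0.5 Mb it was 5 of 19 (26.3%). All 8 within 1 Mb lay at higher coordinates than Wdr48, among 19 probes, and the 22 probes at lower coordinates held 0 calls and ran from -0.13 to 0.30. This split by side was noticed after the values were seen. The nearest was the probe of Gorasp1, a Golgi stacking protein, on the opposite strand with 562 bases between it and the Wdr48 probe. It measured 9.68, 9.72, 9.72 and 9.84 in B6 and 10.19, 10.08, 10.04 and 10.15 in BTBR replicates 1 to 4, without overlap. Gorasp1 rose by 0.37 (standard error 0.06, limma adjusted p = 0.0072). Within slide 2 alone its call was lost (adjusted p = 0.175).
Csrnp1, a nuclear protein, fell by 0.74 at one probe (limma adjusted p = 0.043) and was at -0.03 at another (limma adjusted p = 0.907). Cx3cr1, the fractalkine receptor of microglia, lay 125 kb away and rose by 1.41 (standard error 0.09, limma adjusted p = 1.1e-05) at its brighter probe. The other Cx3cr1 probe was at -0.10 (limma adjusted p = 0.669), and the other 5 microglial markers lay between -0.27 and 0.16, with 0 called by limma. Rpsa, a protein of the small ribosomal subunit, rose by 0.31 (limma adjusted p = 0.029) at its bright probe. At its dim probe it fell by 1.17 (limma adjusted p = 4.3e-04), and with the processed signal it was at -3.20. There 2 of 4 BTBR arrays were well above background, so that this probe passed the filter on dim probes through B6 alone.
Myrip, which links organelles to myosin, fell by 0.56 at its dimmer probe (limma adjusted p = 0.0027), while its brighter probe was at 0.07 (limma adjusted p = 0.724). The transcript 5830454E08Rik fell by 0.58 (limma adjusted p = 0.023). Rpl14, a protein of the large ribosomal subunit 649 kb from Wdr48, fell by 3.67 (standard error 0.05, limma adjusted p = 2.0e-09). It went from 11.77 ± 0.03 in the B6 to 8.10 ± 0.02 in the BTBR group (SD, n = 4 each). The BTBR level was that of the dim Usp12 probe, and the size of the Rpl14 difference depended on the scaling. It was -5.11 with the processed signal and -3.10 in the deposited matrix. The calls of Csrnp1, the bright Rpsa probe and 5830454E08Rik were lost in 6, 5 and 5 of the 8 fits with 1 array left out. Their differences were then between -0.83 and -0.62, between 0.27 and 0.35, and between -0.66 and -0.47. Within slide 2, 5830454E08Rik was at -0.32. Without B6 replicate 3 the neighbors of Wdr48 held 5 calls, and 4 within slide 2.

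**Figure D4:**
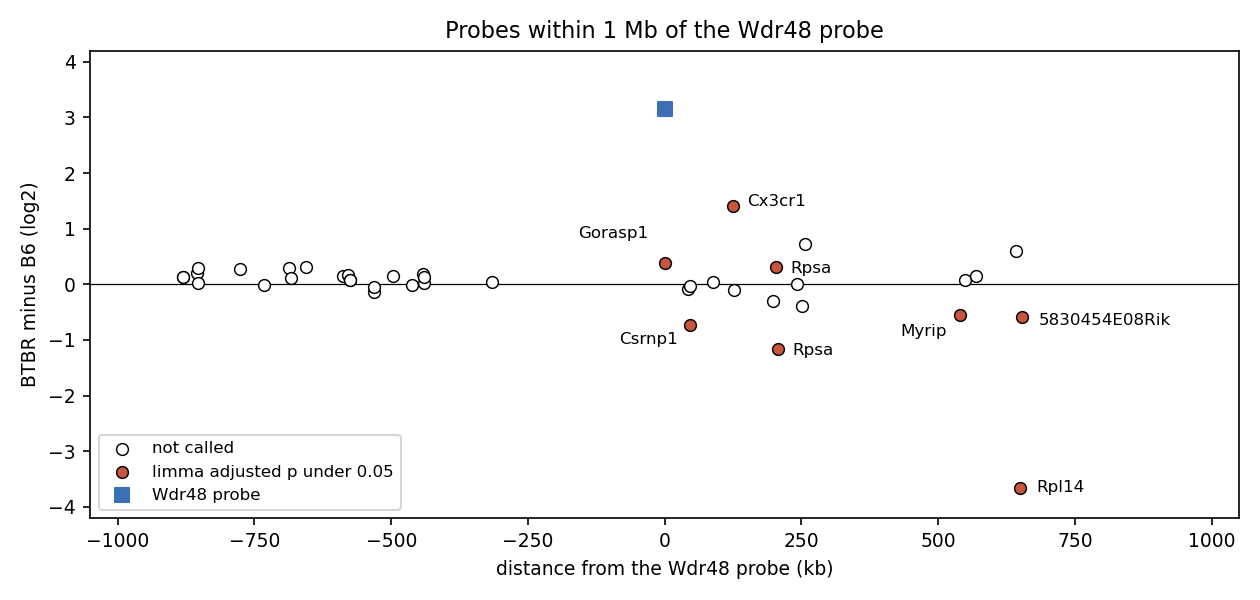
Difference between BTBR and B6 (log2, vertical axis) of each probe within 1 Mb of the Wdr48 probe, by its distance in kb (horizontal axis, higher coordinates to the right). Filled points passed limma at an adjusted p under 0.05, and the square is Wdr48 itself at 3.15. The 8 filled points lie to the right of Wdr48, from -3.67 at Rpl14 to 1.41 at Cx3cr1.

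Around the partner genes the same window of 1 Mb was searched. Near Usp1, limma called 3 of 23 probes (13%, against 7.61% of all probes). These were AK038463, which fell by 0.75 (limma adjusted p = 3.4e-04), Alg6, a glucosyltransferase of protein glycosylation, which fell by 0.49 (limma adjusted p = 0.0087), and Itgb3bp, a centromere protein, which rose by 0.41 (limma adjusted p = 0.016). AK038463 was well above background on 2 of 4 BTBR arrays, so that it passed the filter on dim probes through B6 alone. It lay at -2.29 with the processed signal and -0.46 in the deposited matrix. The Itgb3bp call was lost without B6 replicate 3 (adjusted p = 0.060). Within slide 2 alone the Alg6 call was lost as well (-0.36, adjusted p = 0.224), and that of Itgb3bp was lost within either slide (0.44 and 0.38). The other Itgb3bp probe was at 0.21 (limma adjusted p = 0.189). Without BTBR replicate 3 the count near Usp1 was 5.
Near Usp12, limma called 3 of 31 probes (9.68%), and within 2 Mb 9 of 66 (13.6%), against 7.61% of all probes. The transcript 4930449I24Rik rose by 0.65 (limma adjusted p = 1.4e-04), with 3 of the 4 B6 spots well above background, and by 1.52 with the processed signal. The ubiquitin ligase Rnf6 fell by 0.33 at one probe (limma adjusted p = 0.020), and its other probes were at 0.32 (limma adjusted p = 0.164) and -0.15 (limma adjusted p = 0.334). The polymerase subunit Polr1d fell by 0.32 at one probe (limma adjusted p = 0.048), with -0.20 within slide 2, and was at 0.19 at the other (limma adjusted p = 0.233). The Rnf6 and Polr1d calls were lost in 5 and 7 of the 8 fits with 1 array left out, with adjusted p up to 0.068 and 0.124, and without B6 replicate 2, 3 or 4 or BTBR replicate 1 or 2 the count was 1. Near Usp46, limma called 0 of 23 probes (0%), with the median at 0.035, and 1 without BTBR replicate 4. There 2 probes had an unadjusted p under 0.05 (8.7%, against 18.5% of all probes). Whether the share of calls differs between these places was not tested.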

How the data were processed

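Hippocampal RNA of 4 BTBR and 4 B6 mice was labeled with Cy3 and hybridized to Agilent 4X44K arrays. Spot and background intensity were used as deposited by the authors, whose scanner files name version 10.7.3.1 of the Agilent Feature Extraction software (the submitters' processing notes give 9.1). They carry no scaling between arrays. Flags of that software, coded 0 or 1, were deposited in the same files. The authors also deposited log2 values, background subtracted and quantile normalized with Agi4x44PreProcess; their signal column and offset are not given in the sources used here.

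From mean spot intensity the median local background was taken off (minimum 0.5), 50 was added before the log2, and arrays were quantile normalized. Replicate spots were summarized by their median. Control probes were removed, as were 154 flagged as outliers and all that were dim, meaning not well above background on at least 75% of the arrays of either strain. This kept 27982 of 41174 probes. Limma 3.58.1 (R 4.3.3) fitted strain alone, and a Benjamini-Hochberg adjusted p under 0.05 was called. The study's rank product was not run here. In a simulation of this comparison over 27982 probes, 193 of 200 with a log2 change of 2 were recovered (96.5%), with 6 false calls. Smaller changes and slides were not simulated, so it does not show how often differences like those of Usp1 or Usp12 would be called. Other steps used Python 3.11.15 with SciPy 1.17.1, pandas 2.3.3 and NumPy 2.4.6. A gene in a list was counted by its brightest tested probe.

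Genes, lists and rules were chosen with earlier results of these data known. Named genes were the members, 10 list genes fixed by name (Wdr20, Phlpp1, Phlpp2, Fancd2, Fanci, Pcna, Atad5, Ube2t, Gria1 and Usp7), the called genes of each list and within 1 Mb of a member, and the closest patterns, 3 for Wdr48 and 2 for each partner. Cops5, Wdr37, Usp6nl, Id2, Cyld, Brcc3, Usp36, Usp31 and Usp38 were named after their values were seen. Wdr20a, Wdr20b, Faap24, Faap100, Otulin and Kcnj13 were not analysed here. Alternatives were other scalings, filters, offsets and probe summaries, the deposited matrix, slide and replicate blocks, single slides and single arrays left out. The labels do not say that equal replicate numbers pair mice, and the deviations of same-numbered arrays correlated at -0.14, 0.51, -0.10 and 0.39 for numbers 1 to 4 over all probes (at most 0.37 for unequal numbers). Since this did not hold for every number, the arrays were not treated as pairs. The number of arrays limits the precision, and p-values measure the spread between these mice.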

Additional observations from a re-analysis of the deposited data

Results flagged for a closer look

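At 5830454E08Rik, a neighbor of Wdr48, B6 replicate 1 measured 10.20, away from the other B6 arrays, the nearest of which was at 10.07. It was the only array to stand apart among the 58 groups of 4 arrays checked, where chance gives about 1 in 20.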

How the results depend on the processing

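The direction of the Wdr48, Usp1 and brighter Usp12 differences held in all alternatives run. For Wdr48 the fits without 1 array gave 3.11 to 3.19, and for Usp1 -0.37 to -0.21. With the median over its probes Usp12 as a gene was at -0.093, and its dim probe moved to 0.11 with the processed signal. Limma's 2129 calls over all probes became 2422 within slide 1, 1036 within slide 2 and 1533 to 2183 without 1 array. Same-numbered arrays are not known to be paired, and with the replicate number as a block 1650 probes were called. Under that block, calls were 0 among the DNA repair genes (2 before), 0 among the substrates (1 before), 1 among the Wdr genes (4 before) and 1 near Usp12 (3 before). DNA repair calls were 1 within slide 1, 1 within slide 2 and 0 to 2 without 1 array. Substrate calls were 0 within slide 2 and 0 to 1 without 1 array. The other deubiquitinases (0 before) held 1 call with median centring, the deposited matrix, a trended and robust fit, slide 1 or slide 2, 2 with the median over probes, and 0 to 1 without 1 array. The Wdr genes held 2 with the processed signal, median centring, an offset of 10, no filter on dim probes or the filter on all arrays, 1 within slide 2, and 1 to 4 without 1 array. Neighbor calls of Wdr48 were 4 within slide 2, 5 within 0.5 Mb, 9 within 2 Mb and 5 to 9 without 1 array. Those of Usp1 were 1 within slide 2, 1 within 0.5 Mb and 2 to 5 without 1 array. Those of Usp12 were 1 within slide 2, 1 with the filter on all arrays, 9 within 2 Mb and 1 to 3 without 1 array, and those of Usp46 0 to 1 without 1 array. Centring the within-strain relations on slide was chosen after seeing the data, and gave an r of 0.069 for Wdr48 and Usp1, -0.66 for Wdr48 and Usp12, -0.31 for Usp1 and Usp46, and -0.65 for Usp12 and Usp46. The processed signal gave 0.46 for Wdr48 and Usp1, 0.75 for Wdr48 and Usp46 and 0.84 for Usp1 and Usp12. Median centring gave 0.11, 0.74 and, for Usp12 and Usp46, 0.88. Without 1 array, r ran from -0.43 to 0.31 for Wdr48 and Usp1, 0.06 to 0.74 for Wdr48 and Usp12, 0.29 to 0.68 for Wdr48 and Usp46, 0.03 to 0.87 for Usp1 and Usp12, 0.14 to 0.70 for Usp1 and Usp46, and 0.76 to 0.96 for Usp12 and Usp46. Of 26 called probes of list genes and neighbors, 9 lost the call within slide 1 and 15 within slide 2. This count leaves out the called probes of Wdr48, Gfap, Wdr37, Id2, Cyld, Brcc3, Usp36, Usp31 and Usp38. The cause of these changes was not tested. Wdr48 and Usp1 were read by a single probe each, and the dim Usp12 probe was not well above background on 1 array.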
